A study of Mus musculus with 15 samples.

Results

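Connexins are the proteins from which vertebrate gap junctions are built, and 8 connexin genes (Gja1, Gja4, Gja5, Gjb2, Gjb6, Gjc1, Gjc3 and Gjd2) were followed here, of 53337 genes in the table. The 8 were chosen by name, after Gja1 was found higher with AVP in female offspring, so all female AVP values below are a description and carry no test. The tissue was dorsal forebrain of C57BL/6J mouse embryos at embryonic day 18 (E18), dissected from offspring of dams infused throughout gestation with arginine vasopressin (AVP), a model of preeclampsia, or with its vehicle, saline. Stranded poly(A) mRNA libraries were made from 15 embryos, 4 male and 3 female with AVP and 4 of each sex with saline. The study planned 4 brains per group, and 1 AVP female was excluded by its authors for high variance. Per the study's description, every embryo of a group was from a different litter, and the labels give 8 litters without linking embryos to them, so a female and a male library may share a dam. Values are TPM, the share of a library's transcripts after correction for transcript length, summed over the transcripts of a gene. TPM carry no read counts, so the depth behind each value is unknown.

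Connexin subunits assemble into a hemichannel, and hemichannels of adjoining cells dock to form a channel that passes ions and small metabolites. Cells in different tissue compartments use different members. Gja1 (Cx43) is the connexin of radial glia, astrocytes and meningeal fibroblasts. Gjb2 (Cx26) and Gjb6 (Cx30) are found in leptomeninges and, for Gjb6, in mature astrocytes. Gja4 (Cx37) and Gja5 (Cx40) couple arterial endothelial cells, Gjc1 (Cx45) is found in neurons and vascular smooth muscle, Gjc3 (Cx29) belongs to myelinating glia, and Gjd2 (Cx36) forms the electrical synapses of neurons.

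All libraries held the defining neuronal markers of cortex, with Neurod2 between 154 and 232 TPM and Tbr1 between 86.0 and 119 TPM. The library labelled saline male 12 stood apart, since its Xist level of 266 TPM was within the range of the female libraries (174 to 294 TPM) and its 4 Y-linked transcripts summed to 0.489 TPM, against 102 to 155 TPM in the other 7 male libraries. Its group was kept as labelled, so the male groups and the male libraries below include it. The male log2 differences of the 7 members tested are also given without it. Between saline sexes, differences without it are given for Gja1 and Gjc1. Counts over all genes and permutation p are given with it only. Libraries also differed in what the dissection held. Ttr, a choroid plexus transcript, was between 559 and 2197 TPM in 6 libraries and between 1.53 and 24.4 TPM in the other 9. Summed over 16 meningeal fibroblast markers, the libraries ranged from 312 to 1194 TPM.

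Below, Gja1, Gjb2 and Gjb6 vary together, as do Gja4 and Gja5. The promoters of these 5 members are shown, with the short elements found in each. Each is the 250 bases before the start of the gene in RefSeq (GRCm38.p6), which held 7 of the 8 members and no entry for Gjc1. Each reads 5′ to 3′ on the strand of its gene, and capitals mark a GC box (GGGCGG, either strand) or an AP-1 site (TGACTCA, either strand). The windows were chr10:56377050-56377299 on the plus strand for Gja1, chr14:57104703-57104952 on the minus strand for Gjb2, chr14:57133612-57133861 on the minus strand for Gjb6, chr4:127314040-127314289 on the minus strand for Gja4 and chr3:97032152-97032401 on the plus strand for Gja5.
Gja1: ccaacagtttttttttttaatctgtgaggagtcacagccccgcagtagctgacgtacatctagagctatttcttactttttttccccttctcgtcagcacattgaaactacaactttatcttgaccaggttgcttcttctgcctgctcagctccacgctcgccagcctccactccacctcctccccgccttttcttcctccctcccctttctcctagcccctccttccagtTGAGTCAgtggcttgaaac
Gjb2: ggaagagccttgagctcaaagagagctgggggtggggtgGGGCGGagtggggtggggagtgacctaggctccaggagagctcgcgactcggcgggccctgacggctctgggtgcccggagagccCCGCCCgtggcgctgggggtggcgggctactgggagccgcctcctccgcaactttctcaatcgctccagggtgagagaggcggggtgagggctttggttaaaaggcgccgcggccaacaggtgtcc
Gjb6: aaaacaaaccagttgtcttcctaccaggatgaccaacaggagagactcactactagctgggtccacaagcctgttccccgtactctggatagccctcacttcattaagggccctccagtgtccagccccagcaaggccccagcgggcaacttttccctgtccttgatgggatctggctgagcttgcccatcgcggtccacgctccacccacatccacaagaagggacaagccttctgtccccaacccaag
Gja4: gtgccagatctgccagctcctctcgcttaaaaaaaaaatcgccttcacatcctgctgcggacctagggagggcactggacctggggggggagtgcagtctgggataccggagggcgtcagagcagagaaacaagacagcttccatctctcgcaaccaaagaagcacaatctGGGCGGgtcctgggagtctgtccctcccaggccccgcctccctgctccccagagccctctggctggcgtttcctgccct
Gja5: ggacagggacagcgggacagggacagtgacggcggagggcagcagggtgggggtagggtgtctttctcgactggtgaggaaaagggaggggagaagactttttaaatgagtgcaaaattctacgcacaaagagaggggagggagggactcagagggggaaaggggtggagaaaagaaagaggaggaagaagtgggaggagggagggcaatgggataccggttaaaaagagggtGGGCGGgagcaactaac
The Gja1 window held 1 AP-1 site, 19 bases before the start, which 4.46% of 32851 promoters of the same length held as well. Gjb2 held 2 GC boxes and Gja4 and Gja5 held 1 each, an element present in 32.7% of promoters. The Gjb6 window held no GC box, CCAAT box, TATA box (TATAAA) or AP-1 site. The GC content of the windows was 50% for Gja1, 69.2% for Gjb2, 56.8% for Gjb6, 61.2% for Gja4 and 56.4% for Gja5, where the median of all promoters was 52.4%. These matches describe letters and not occupied sites.

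In the genome (GRCm38), Gja1 (ENSMUSG00000050953) lies on chromosome 10 from 56377330 to 56402513, and its 2-exon transcript Gja1-201 carried 99.0% of its TPM. Gjb2 (chromosome 14, 57098600 to 57104702) and Gjb6 (chromosome 14, 57123303 to 57133611) are neighbours on the minus strand, 18600 bases apart. Gja3, which the lens uses, lies beside them, and its mean was 0.251 TPM. Gja4 lies on chromosome 4 from 127311421 to 127314039. Gja5 was annotated on chromosome 3 from 96904693 to 97077416, although 88.2% of its TPM came from Gja5-201, which starts at 97032416. Gjc1 lies on chromosome 11 (102799579 to 102819700), Gjc3 on chromosome 5 (137953461 to 137963098) and Gjd2 on chromosome 2 (114009601 to 114013619).

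Per length, Gja1 and Gjc1 were the most abundant members and the others were far below. The median over the 15 libraries was 50.1 TPM for Gja1 (range 18.2 to 76.1) and 40.2 TPM for Gjc1 (range 32.4 to 44.2). Gja1 exceeded Gjc1 in 9 of 15 libraries, so the order of this pair was not fixed. Gjc1 exceeded the next member, Gjb6, in every library with no overlap of their ranges. Below them came Gjb6 (median 8.82 TPM), Gja4 (6.19 TPM), Gjd2 (5.30 TPM) and Gjb2 (4.54 TPM). Neighbours among these 4 had overlapping ranges, as did Gjb2 and Gja5 (1.03 TPM) and Gja5 and Gjc3 (0.120 TPM). All 8 kept their rank under median-of-ratios scaling. Gjc3, the myelin connexin, reached 1 TPM in 1 library, AVP female 10, in which it was at 1.04 TPM. Oligodendrocyte lineage markers were present in all libraries, with Sox10 between 1.55 and 10.97 TPM.

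The members differed in how much they varied between libraries. Gjc1 varied 1.37-fold from the lowest to the highest library, and the SD of its log2(TPM + 0.5) was at the 14.3 percentile of all genes. Gjb6 varied 11.2-fold, Gja5 8.21-fold, Gjb2 7.46-fold and Gja1 4.18-fold, with SDs at the 96.3, 93.1, 96.1 and 93.7 percentiles. Gja4, with a 2.03-fold range, and Gjd2, with a 2.44-fold range, lay between at the 67.2 and 79.2 percentiles. The 4 widest ranges among the members tested were those of Gjb6, Gja5, Gjb2 and Gja1, and the narrowest was that of Gjc1.

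**Figure D1:**
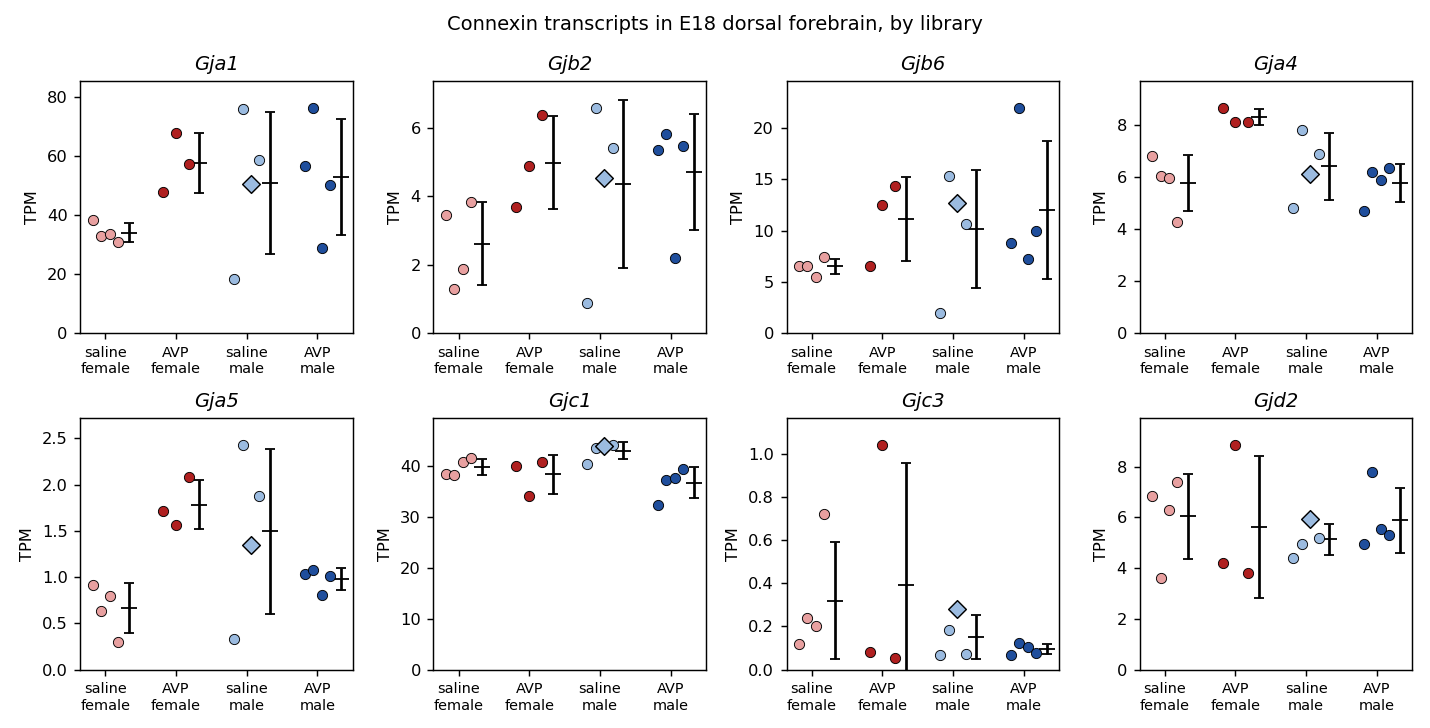
Level of each connexin (TPM, linear axis from 0) in every library of the 4 groups, with the group mean and SD at the right of the points (SD bars stop at 0). The diamond is the library labelled saline male 12. Gja1 lay between 30.6 and 38.4 TPM in saline females and between 47.6 and 67.8 TPM in AVP females, whereas both male groups spread over most of the axis.

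Gja1, the most abundant member, was at 47.6, 67.8 and 57.3 TPM in the AVP females (57.6 ± 10.1 SD, n = 3). In the saline females it was at 38.4, 32.98, 33.6 and 30.6 TPM (33.9 ± 3.23 SD, n = 4). Every AVP female was above every library labelled saline female, a ratio of means of 1.70. Saline male 12, whose sex-linked transcripts were in the female range, was at 50.5 TPM, above AVP female 3. The AVP males held 56.4, 76.1, 28.7 and 50.1 TPM (52.8 ± 19.6 SD, n = 4). The saline males held 18.2, 75.7, 50.5 and 58.5 TPM (50.7 ± 24.1 SD, n = 4). The male groups overlapped, and the lowest library of the series, saline male 4, and the highest pair, AVP male 2 and saline male 5, were all male. The AVP difference in males was 0.15 on the log2(TPM + 0.5) scale (SE 0.44, limma adjusted p = 0.902), and the p of an exact two-sided permutation was 0.829. Its direction turned without saline male 4 (-0.28) and without AVP male 2 (-0.06), and it was 0.20 without saline male 12. Within the run of libraries numbered 1 to 7 the male difference was 0.81, and within that numbered 8 to 15 it was -0.51. In females, for description, it was 0.75 (SE 0.14), between 0.62 and 0.87 with each library left out, and 0.42 and 0.95 within the runs. Whether the female and male differences differ was not tested, since the female difference had chosen the gene.

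Gjb2, a connexin of leptomeninges, was at 3.70, 4.89 and 6.39 TPM in AVP females and at 3.47, 1.30, 1.88 and 3.84 TPM in saline females. The highest saline female was above the lowest AVP female, so these groups overlapped, and the log2 difference was 0.88 (SE 0.34, no test). In AVP males it was at 5.36, 5.84, 2.18 and 5.48 TPM and in saline males at 0.884, 6.59, 4.54 and 5.41 TPM. The lowest values were again those of saline male 4 and AVP male 8. The male difference was 0.26 (SE 0.51, limma adjusted p = 0.854). It was -0.27 without saline male 4 and 0.35 without saline male 12. The runs gave 0.96 and -0.45.

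Gjb6, its neighbour on chromosome 14, was at 6.57, 12.5 and 14.4 TPM in AVP females and at 6.58, 6.52, 5.49 and 7.38 TPM in saline females. AVP female 3 was within the saline range, and the log2 difference was 0.67 (SE 0.26, no test), 0.00 within the first run and 1.02 within the second. AVP males held 8.82, 21.95, 7.26 and 9.93 TPM and saline males 1.96, 15.4, 12.7 and 10.6 TPM. The male difference was 0.39 (SE 0.58, limma adjusted p = 0.790), with -0.21 without saline male 4 and 0.59 without saline male 12. It was 1.21 within the first run and -0.43 within the second.

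Gjb6 had the largest share on non-coding transcripts among the members. Its main coding transcript, Gjb6-201, carried 43.8% of its TPM, while 27.3% was assigned to the single-exon retained-intron transcript Gjb6-204 and 26.7% to Gjb6-203, a processed transcript of 201 nt with no coding sequence. In 4 libraries Gjb6-203 was listed at 0, whereas AVP male 2, the library with the highest Gjb6, held 9.99 TPM of it. The share of Gjb6 TPM on coding transcripts ranged from 17.8% to 84.2% between libraries. Counting coding transcripts alone, a choice made after these shares were seen, AVP females lay between 4.75 and 5.85 TPM and saline females between 1.77 and 3.38 TPM, without overlap. The female log2 difference was then 0.89 (SE 0.23, no test) and the male difference -0.06 (SE 0.55, limma adjusted p = 0.974), so that in males the sign turned. Saline male 12, with sex-linked transcripts in the female range, held 5.62 TPM of Gjb6-201 alone, above the lowest AVP female. Gjc1 was also split, with 60.02% and 30.5% of its TPM on its main coding transcripts.

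**Figure D2:**
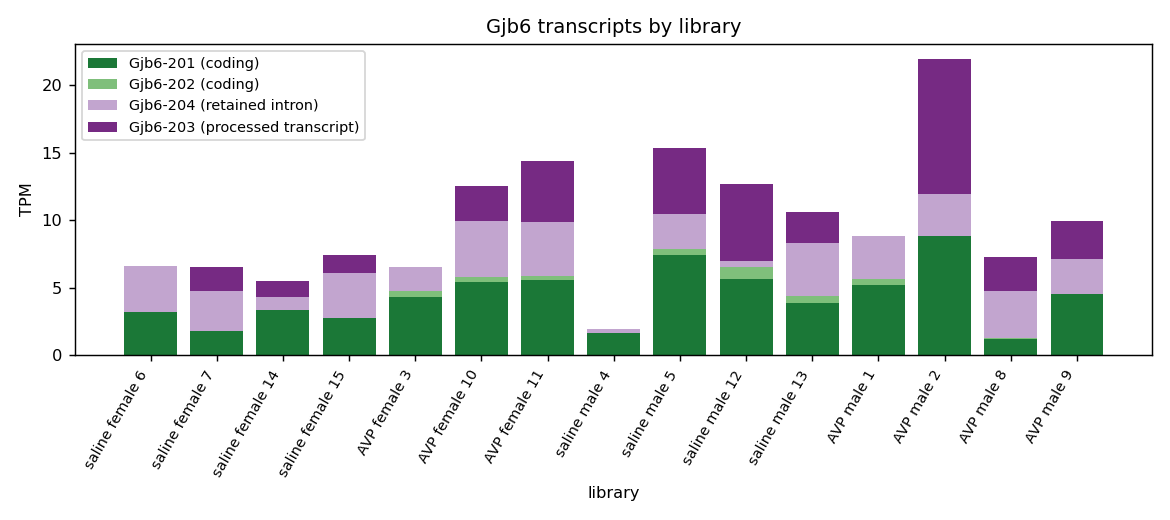
Gjb6 TPM in each of the 15 libraries (stacked bars from 0), divided into the main and a minor coding transcript, the retained-intron transcript Gjb6-204 and the processed transcript Gjb6-203. The non-coding part was largest in AVP male 2, where Gjb6-203 alone reached 9.99 TPM, and small in saline male 4.

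Gja4, an arterial endothelial connexin, was at 8.65, 8.10 and 8.13 TPM in AVP females and at 6.80, 6.02, 5.96 and 4.27 TPM in saline females. The groups did not overlap and the log2 difference was 0.51 (SE 0.18, no test). AVP males held 4.70, 6.19, 5.87 and 6.34 TPM and saline males 4.80, 7.82, 6.10 and 6.90 TPM. The male groups overlapped, with a difference of -0.13 (SE 0.16, limma adjusted p = 0.757), or -0.14 without saline male 12.

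Gja5, its partner in arterial endothelium, was near 1 TPM. AVP females were at 1.71, 1.56 and 2.08 TPM and saline females at 0.918, 0.639, 0.799 and 0.296 TPM. No saline female reached 1 TPM, the groups did not overlap, and the log2 difference was 0.999. Gja5 was under the expression filter in females, at least 1 TPM in 50% of libraries, so the fit gave no SE there. AVP males held 1.03, 1.07, 0.809 and 1.02 TPM and saline males 0.336, 2.43, 1.34 and 1.88 TPM. The male difference was -0.29 (SE 0.36, limma adjusted p = 0.746), with -0.66 without saline male 4 and -0.28 without saline male 12.

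Gjc1, the most even member, gave the only male groups that did not overlap. AVP males were at 32.4, 37.4, 37.8 and 39.4 TPM (36.8 ± 3.04 SD, n = 4), and saline males at 40.5, 43.6, 44.0 and 44.2 TPM (43.1 ± 1.73 SD, n = 4). The highest AVP male was below the lowest saline male. The log2 difference was -0.23 (SE 0.08), and a two-sided exact permutation gave p = 0.0286, the lowest value possible with 4 libraries against 4, with a limma adjusted p of 0.310, which missed the threshold of 0.05. Of all 15271 genes tested in males, 6.54% were lower in AVP males without overlap, and the median gene differed by -0.10. Relative to that median, Gjc1 differed by -0.13. The difference was -0.27 and -0.19 within the runs, -0.12 after median-of-ratios scaling and -0.11 after quantile normalization. Without saline male 12 it was -0.22, with a limma adjusted p of 0.612. The AVP females held 40.2, 34.1 and 40.9 TPM of Gjc1 and the saline females 38.5, 38.3, 40.9 and 41.5 TPM, groups that overlapped (-0.06, SE 0.10, no test).

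Gjd2, the connexin of electrical synapses, was at 4.22, 8.87 and 3.81 TPM in AVP females and at 6.83, 3.63, 6.31 and 7.41 TPM in saline females. AVP males held 4.95, 7.79, 5.55 and 5.30 TPM and saline males 4.42, 4.97, 5.94 and 5.20 TPM. Groups overlapped in both sexes, and the differences were -0.14 in females (SE 0.33, no test) and 0.17 in males (SE 0.16, limma adjusted p = 0.651), or 0.24 in males without saline male 12. The female value rested on single libraries, being -0.50 without AVP female 10 and 0.065 without AVP female 11. Gjc3 lay between 0.0549 and 1.04 TPM in females and between 0.0675 and 0.281 TPM in males, under the filter in both sexes.

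Counted over the family, 7 of the 8 members passed the filter in males and 0 had an adjusted p under 0.05 by limma, where 0.00655% of all genes were called. By unadjusted p under 0.05, 1 of the 7 was called, lower (Gjc1), against 12.4% of all genes. The adjusted p of the 7 lay between 0.310 and 0.902. In females 6 members passed the filter, and 2 of them (Gja1 and Gja4) were higher with AVP without overlap, where 2.78% of the genes tested were. Gja5, under the filter, was without overlap as well. Saline male 12, with sex-linked transcripts in the female range, was above the lowest AVP female for Gja1. For Gja4 (6.10 TPM) and Gja5 (1.34 TPM) it was below every AVP female. Nothing is read from the female count, since the female contrast had chosen the family. By adjusted p, limma called 0 of 15132 genes in females and 683 by unadjusted p under 0.05 (4.51%).

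**Figure D3:**
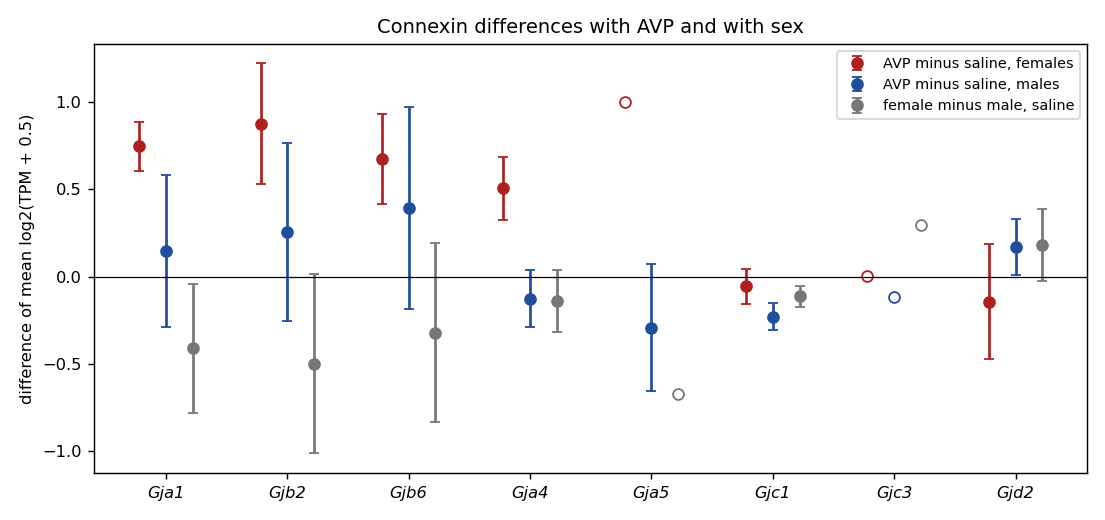
Difference in mean log2(TPM + 0.5) for each connexin between AVP and saline females (red), AVP and saline males (blue) and saline females and saline males (grey), with bars of 1 SE from the limma fit. Open points had too low a level to be fitted. Red points for Gja1, Gjb2, Gjb6, Gja4 and Gja5 lay between 0.51 and 0.999, and blue points between -0.29 and 0.39.

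Without AVP, female and male levels were compared among saline libraries alone. The mean was lower in females for 6 of the 8 members, all but Gjc3 and Gjd2, where 39.3% of all genes tested were higher in females. Every pair of groups overlapped, and nothing is read from the count of directions. Gja1 had means of 33.9 against 50.7 TPM, and Gja5, which was under the filter here, had 0.663 against 1.498 TPM (-0.67). Of the 6 members tested, 0 passed (limma adjusted p between 0.928 and 0.959, where 0.00650% of genes were called), and 0 of the 8 were without overlap, against 2.47% of genes tested. The Gja1 difference, female minus male, was -0.41 (SE 0.37). It was -0.84 without saline male 4, -0.16 without saline male 5 and -0.35 without saline male 12. Gjc1 had the lowest exact permutation p, 0.0857, at a difference of -0.11, which was -0.10 without saline male 12. The AVP comparison of each sex uses the same saline libraries. The 4 saline females held a narrow range of Gja1 (coefficient of variation 9.54%), and the saline males a wide one (47.5%).

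Gja1 tracked meningeal fibroblast transcripts from library to library. Correlations here are descriptions over 15 libraries, whose values share a library total and the mixture of tissue in each dissection, and no p is given. Of all genes with at least 1 TPM in 50% of libraries, the 10 most like Gja1 were Col6a2, Col1a2, Aldh1a2, Itih2, Ppic, Cldn11, Islr, Lox, Slc6a13 and Mrc2, with r from 0.98 for Col6a2 to 0.94 for Mrc2. Col1a2, Aldh1a2, an enzyme of retinoic acid synthesis, and Slc6a13, a GABA transporter, are on the meningeal list. Over the 8 male libraries alone, 4 of these 10 were again among the 10 most alike. Col6a2, Col1a2, Cldn11, Lox and Slc6a13 are, like Gja1, on the study's own list of genes changed with AVP in females. Their likeness to Gja1 over all 15 libraries is therefore not independent of that contrast. Of 16 meningeal genes, 12 were among the 100 most like Gja1, whereas of 18 radial glial and astroglial genes 0 were.

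Against the mean log2 level of the meningeal list, r was 0.98 for Gja1 (Spearman's rho 0.94), and 0.96 without saline male 4 and saline female 15, the libraries farthest from the median. It was 0.99 over the 8 males, 0.96 over the 7 females and 0.98 without saline male 12. Against radial glia and astroglia, whose defining genes Slc1a3 (49.4 to 105 TPM) and Fabp7 (1439 to 2504 TPM) were abundant in every library, r was 0.22. In bulk tissue, more cells of a type and more RNA per cell cannot be told apart.

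Gjb2 and Gjb6 followed the same list, with r of 0.88 and 0.91, and 14 of its 16 genes were among the 100 most like each. The genes most like Gjb2 were Foxc2, Itih2, Crabp2, Cdh1 and Cldn11, and those most like Gjb6 were Slc6a13, Mrc2, Cldn11, Gja1 and Bmp5. Foxc2 is a transcription factor of mesenchyme and Cldn11 a claudin of tight junctions. Between the members, r was 0.91 for Gja1 and Gjb6, 0.89 for Gja1 and Gjb2 and 0.86 for Gjb2 and Gjb6. The means of the arterial endothelial, mural and macrophage lists also moved with Gja1, at r of 0.84, 0.74 and 0.85, and that of endothelium at 0.65. Gene by gene, the median r with Gja1 was 0.92 for the meningeal list and 0.74 for the macrophage list. It was 0.63 for the mural, 0.51 for the endothelial and 0.36 for the arterial list. Among the 100 genes most like Gja1 were 1 of 8 macrophage, 0 of 10 mural, 1 of 12 endothelial and 0 of 7 arterial genes.

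**Figure D4:**
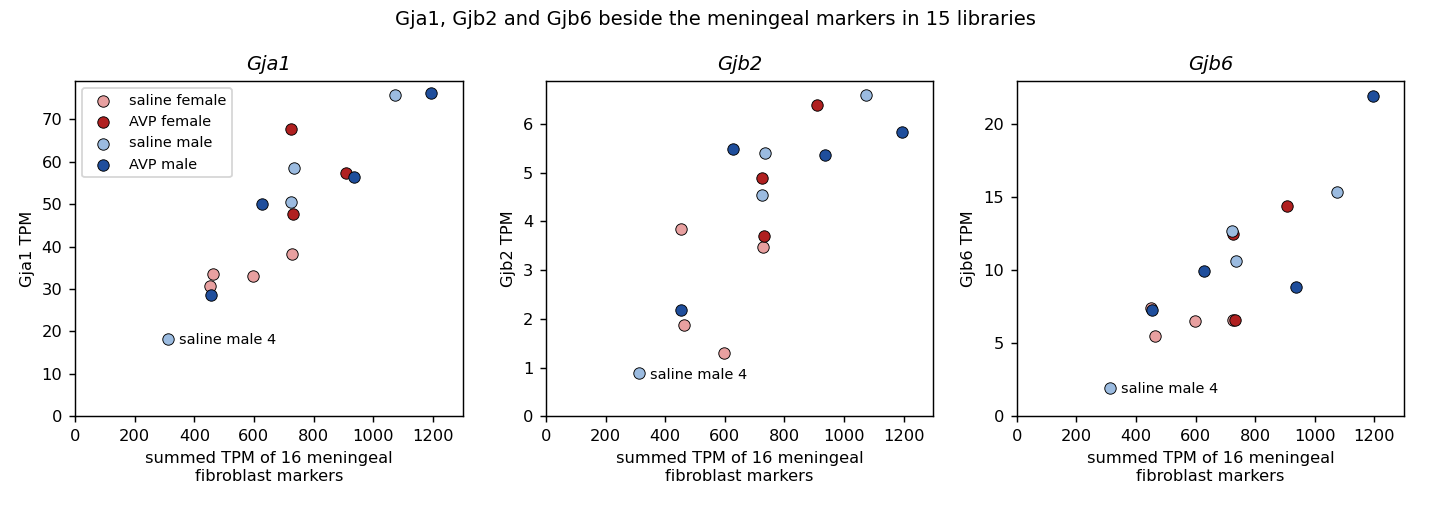
Gja1, Gjb2 and Gjb6 (TPM) against the summed TPM of 16 meningeal fibroblast markers in each of the 15 libraries, coloured by group, both axes linear from 0. Saline male 4 held the least of both (312 TPM of markers), and AVP male 2 (1194 TPM) and saline male 5 the most markers and the most Gja1.

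The same markers moved with the female difference in Gja1. The meningeal sum was 725, 731 and 908 TPM in AVP females and between 452 and 727 TPM in saline females. All 16 meningeal genes had a higher mean with AVP in females, with a median log2 difference of 0.84 where that of all genes was -0.05, and 11 of the 16 were without overlap (2.78% of all genes). The list has 5 genes that the study itself drew from these female libraries, so it is no independent evidence of the direction. In males the meningeal sum was 455 to 1194 TPM with AVP and 312 to 1074 TPM with saline. Of the 16 genes, 14 were higher, with a median of 0.20, where 26.4% of all genes were higher, and 0 passed the test. The sum of 312 TPM was that of saline male 4, without which the male difference of Gja1 turned to -0.28. The list was not refitted without that library and its genes move together, so no male direction is read from this count. None of the 5 defining markers (Foxc1, Aldh1a2, Slc6a13, Lum and Col3a1) was under 0.1 TPM in any group. Their part in the female difference of Gja1 was not tested.

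Gja4 and Gja5 moved with vascular transcripts. The genes most like Gja4 were Clec14a, Ehd2, Ecscr, Sox7 and Mmp2, of which Clec14a, Ecscr and Sox7 are endothelial genes. Among its 100 most alike were 7 of 12 endothelial and 3 of 10 mural markers. Over the 8 males alone, 2 of the 12 endothelial and 4 of the 10 mural markers were. The r of Gja4 with the endothelial list was 0.90, and 0.86 without the 2 libraries farthest from the median. Over the 8 males it was 0.89. With the mural, macrophage and meningeal lists r over all 15 libraries was 0.84, 0.74 and 0.68. Those most like Gja5 were Aplnr, the apelin receptor, Bgn, Cxcl12, Syngr2 and Cped1. Gja5 had an r of 0.87 with the mural list, 0.84 with endothelium, 0.83 with arterial endothelium and 0.87 with meningeal fibroblasts, which did not separate these compartments. Between Gja4 and Gja5 r was 0.84. The endothelial sum was 293 to 313 TPM in AVP females and 188 to 280 TPM in saline females, without overlap. The mural sum (182 to 189 against 124 to 161 TPM) and the microglia and border macrophage sum (69.2 to 75.2 against 30.5 to 56.4 TPM) did not overlap either. Gene by gene, 4 of 12 endothelial and 3 of 10 mural markers were higher without overlap, against 2.78% of all genes tested. Saline male 12, with sex-linked transcripts in the female range, is not among the saline females. Its endothelial sum (301 TPM) and macrophage sum (71.0 TPM) were within the AVP female ranges, and its mural sum (178 TPM) was below them. In males the endothelial sum was 234 to 270 TPM with AVP and 217 to 343 TPM with saline. The part of these cells in the female values of Gja4 and Gja5 was not tested.

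Over all 15 libraries, Gjc1 had an r between -0.22 and 0.31 with each of the 10 marker lists. Within a sex its r differed in sign, with 0.68 over the 8 males and -0.58 over the 7 females for endothelium, and 0.25 and -0.80 for radial glia and astroglia. The genes most like it were Eml1, Rps27rt, Gm21541, Gm49686 and Nfe2l3, at r of 0.80 or below, and its r with Gja1 was -0.10. Gjd2 was lower where choroid plexus transcripts were high, and it was the only member whose ranges did not overlap in the split given below. Its r was -0.70 with the choroid plexus list, 0.68 with the oligodendrocyte lineage and 0.61 with radial glia and astroglia, the last being 0.25 without AVP females 10 and 11. Over the 8 males r was -0.52 for choroid plexus and 0.11 for the oligodendrocyte lineage, and over the 7 females -0.86 and 0.80. In the 6 libraries with at least 500 TPM of Ttr it lay between 3.63 and 4.97 TPM, and in the other 9 between 5.20 and 8.87 TPM, without overlap. The ranges of the other 7 members overlapped in the same split, which was drawn after the values were seen and was not tested. Of the AVP females 2 of 3 held such Ttr levels, of the saline females 1 of 4, of the AVP males 1 of 4 and of the saline males 2 of 4. Genes most like Gjd2 included Spock3 (r of 0.89), 6530411M01Rik, Csmd1 and Dgkb.

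**Figure D5:**
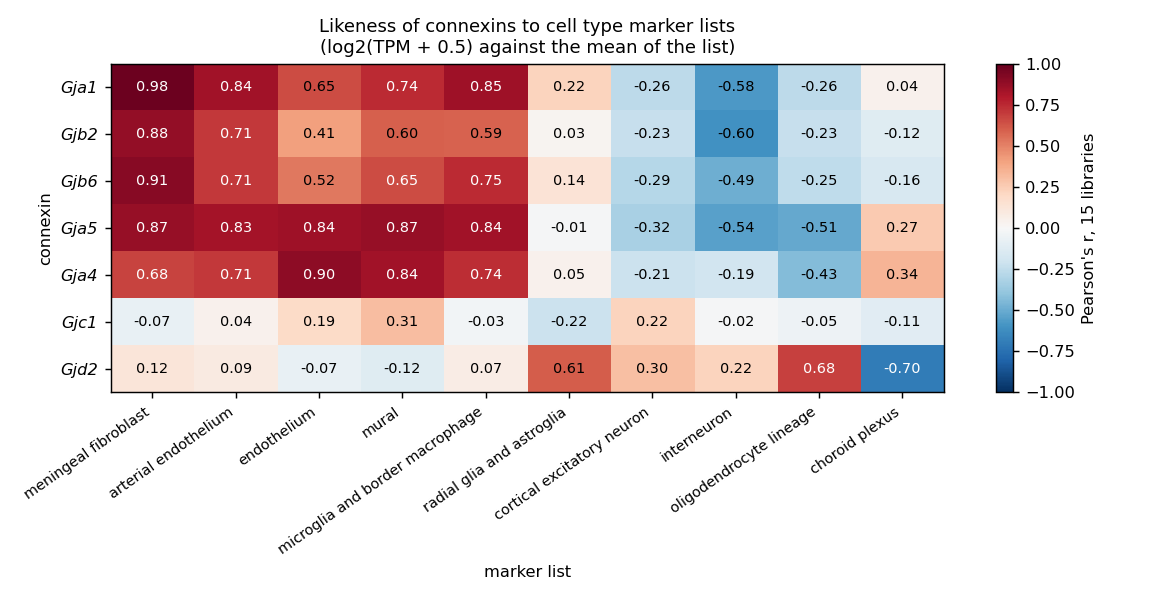
Pearson's r over 15 libraries between each connexin that passed the filter (rows, log2(TPM + 0.5)) and the mean log2(TPM + 0.5) of each marker list (columns), on a colour scale from -1 to 1. Gja1, Gjb2 and Gjb6 were most like meningeal fibroblasts (0.98, 0.88 and 0.91), Gja4 most like endothelium (0.90), and Gjd2 was opposite to choroid plexus (-0.70).

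In the rest of the gap junction set, the other connexins were low and no pannexin or partner gene was called in males. The other 12 connexins had mean levels of at most 0.706 TPM, that of Gjb1, and Gja10 was listed at 0 in every library. The pannexins form related channels that open to the outside of the cell. Panx1 had a mean of 60.2 TPM, above that of any connexin, and Panx2 one of 14.4 TPM. Of these 15 genes, Panx1 and Panx2 passed the filter in males and 0 were called (-0.09 and -0.33 on the log2 scale). Partner proteins that scaffold, traffic or phosphorylate connexins were measured by 23 genes. The most abundant were Ctnnb1, which encodes beta-catenin (578 TPM), Dbn1, the actin-binding drebrin (474 TPM), Nedd4, a ubiquitin ligase (301 TPM), and Ywhaq, a 14-3-3 protein (252 TPM). In males 0 of 23 passed the test, and their median difference was -0.10, equal to that of all genes. In females, their median was -0.0042 against -0.05 for all genes.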

How the data were processed

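Poly(A) RNA of 15 E18 dorsal forebrains was sequenced as stranded paired-end libraries. The authors removed adapters with Trim Galore 0.4.1, checked reads with FastQC 0.5.2, and quasi-mapped them to GENCODE M16 transcripts (GRCm38) with kallisto 0.43.1, with bias correction and strand. The deposited table holds TPM per transcript, with no unit in its header; each library sums to 1000000, and kallisto divides by transcript length and library total, so no scaling between libraries is included and depth is unknown. The authors tested genes with sleuth 0.29.0, which was not rerun because the table lacks the resampled estimates it needs.

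Gene values are sums over 133849 transcripts, assigned to 53337 genes by GENCODE M21 (same assembly); 404 transcripts without a gene (0.154% to 0.199% of TPM) were left out. A gene entered a fit when 50% or more of its libraries reached 1 TPM, and log2(TPM + 0.5) was fitted by limma 3.58.1 (R 4.3.3, mean-variance trend, treatment or sex as the only term, Benjamini-Hochberg over all genes tested, threshold 0.05). Single members had an exact two-sided permutation test in males and between saline sexes. The tests were tested on simulated data. The 8 members, marker lists and partner list were chosen with earlier results of these data known. Named genes were the members, the 5 genes most like each by Pearson's r (10 for Gja1), the 4 other connexins, pannexins or partners of highest mean TPM and the defining markers; some of these are not reported here. Alternatives were quantile and median-of-ratios scaling, other filters, pseudocounts and thresholds, no trend, the library number run as a covariate, a joint fit of the 15 libraries, each library left out in turn, and, added after seeing transcript shares, coding transcripts of members only. Libraries are named by treatment, sex and the number in their title. Motifs were searched on both strands of the promoter windows. Figures were drawn with matplotlib 3.10.9.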

Additional observations from a re-analysis of the deposited data

Results flagged for a closer look

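Values that lay far from the rest of their group of 4 libraries were looked for in 60 groups of member levels, marker sums and sex-linked transcripts. There were 8, where a rate of about 1 in 20 groups gives about 3. That rate does not allow for groups that vary together or for choroid plexus levels, which fell in a low and a high set. Xist and the Y-linked sum flag the same library, so no excess is read from the count. Among members, Gjb2 was at 2.18 TPM in AVP male 8, against 5.36 to 5.84 TPM in the other AVP males. Gjc1 was at 40.5 TPM in saline male 4, against 43.6 to 44.2 TPM in the other saline males. Xist was at 266 TPM in saline male 12, against 0.457 to 1.13 TPM in the other saline males, and the Y-linked sum there was 0.489 TPM, against 145 to 155 TPM. Choroid plexus markers summed to 964 TPM in saline female 7, against 8.97 to 31.3 TPM, and to 642 TPM in AVP male 1, against 10.2 to 15.4 TPM. Microglia and border macrophage markers summed to 30.5 TPM in saline female 15, against 53.5 to 56.4 TPM, and to 85.2 TPM in AVP male 2, against 51.9 to 55.7 TPM.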

How the results depend on the processing

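AVP and saline embryos had different dams, so they form no litter pairs. Female and male libraries may share a dam, but the labels do not link embryos to litters, so no paired analysis was possible. Of the members' log2 differences under the alternatives, 6 of 121 in males, 3 of 99 in females and 0 of 104 between saline sexes turned direction. In the comparisons with a test (males and saline sexes), none crossed the threshold. The 3 in females were Gjc1 after quantile normalization (0.00087), Gjc1 without AVP female 10 (0.027) and Gjd2 without AVP female 11 (0.065). The 6 in males were Gja4 after quantile normalization (0.015), Gja1 without AVP male 2 (-0.06), Gja1, Gjb2 and Gjb6 without saline male 4 (-0.28, -0.27 and -0.21) and Gjb6 from coding transcripts only (-0.056). With each library left out, the male differences ran from -0.28 to 0.41 for Gja1, from -0.27 to 0.55 for Gjb2 and from -0.21 to 0.68 for Gjb6. The cause was not tested. The count of genes called among all genes in males, 1, became 0 with a filter of 5 TPM in every library, a pseudocount of 1, the run covariate or 1 fit of all 15 libraries, 2 without the trend, and 0 to 6 with each library left out. The 6 came without AVP male 2 and 5 came without AVP male 8 or AVP male 9. In females 0 became 0 to 6 with each library left out, with 6 without saline female 15 and 1 without saline female 7 or AVP female 11. Between saline sexes 1 became 0 with no filter, a filter of 5 TPM, a pseudocount of 1 or 1 fit of all 15 libraries, and 0 to 4 with each library left out, with 4 without saline female 15. Of the 10 genes most like Gja1, 4 were in the same list over the 8 male libraries. TPM carry no depth, so the precision of low members such as Gja5 and Gjc3 is unknown, and groups of 3 or 4 libraries left log2 SEs of 0.44 to 0.58 for Gja1, Gjb2 and Gjb6 in males.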
